A study of Mus musculus with 8 samples.

Results

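Enzymes that use arginine, make nitric oxide or begin polyamine synthesis were followed in lymphatic endothelial cells of mouse ear skin. The 10 genes were Arg1, Arg2, Nos2, Nos3, Ass1, Asl, Gch1, Odc1, Ddah1 and Ddah2, and they were chosen by name, as every probe set whose annotation names 1 of them and no other gene. That gave 18 of the 45037 probe sets of the array, for 10 of the 18193 genes that have a probe set of their own. A further probe set names Ass1 together with a second gene and was not used here, so what follows on Ass1 holds for a single probe set, and how well it stands for the gene was not tested.

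Lymphatic endothelium forms the wall of vessels that carry fluid and immune cells away from skin. The cells were sorted by CD31 and podoplanin, without CD45, from digested ears of female FVB mice aged 8 to 10 weeks, and each sample pooled the ears of 3 mice. The inflamed group held 4 samples taken after contact hypersensitivity: oxazolone, a hapten that sensitises skin, was painted at 2% on abdomen and paws, at 1% on the ears 5 days later, and ears were collected after a further 24 hours. The untreated group held 4 samples of healthy mice. Each inflamed sample forms a pair with an untreated sample of mice of the same age whose sort and RNA extraction shared its day. RNA was amplified and hybridised to single-colour arrays, and all levels below are log2 of the deposited MAS5 signal, so that a difference of 1 is a doubling.

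Arginine stands at a branch point. Nitric oxide synthases turn it into nitric oxide and citrulline, with tetrahydrobiopterin as cofactor, and citrulline can be rebuilt into arginine by Ass1 and Asl. Arginases instead split it into urea and ornithine, and ornithine is the substrate from which Odc1 makes putrescine, the first polyamine. In endothelium, nitric oxide from Nos3 is known for relaxing the surrounding muscle through soluble guanylate cyclase, and in lymphatic vessels for tuning their pumping. The comparison of the groups addresses which transcripts of the lymphatic wall change when skin is inflamed.

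Mean signal per array lay between 139.6 and 160.4 in inflamed and between 126.2 and 146.3 in untreated samples. A background ceiling per array, the 95th percentile of 27 bacterial control probe sets, lay between 2.53 and 3.31. On inflamed arrays 53.5% to 56.0% of probe sets exceeded it, against 54.9% to 62.6% on untreated arrays. Of 8 lymphatic endothelial markers 7 were measured, and their mean stood at 10.30 to 11.35 on inflamed arrays and 11.53 to 11.91 on untreated arrays, with every measured marker above the ceiling in both groups on at least 1 array. Among the 4 brightest, Flt4, Lyve1 and Mmrn1 averaged 11.93, 11.96 and 10.73 in inflamed samples, against 12.30, 12.14 and 11.93 in untreated ones, and Pdpn, the gene of podoplanin, differed by 0.56. Of the 7, 3 were called lower in inflamed samples, Mmrn1 by -1.20, Reln by -0.91 and Nrp2 by -1.71 (adjusted p = 0.00216, 0.0298 and 0.00450, limma), and Prox1, the transcription factor that defines these cells, differed by -1.44 (adjusted p = 0.0618). The mean of 8 pan-endothelial markers was 7.77 to 8.72 on inflamed and 8.75 to 9.84 on untreated arrays, and both endothelial means were lower in all 4 pairs. Of these 8, Tek, Tie1 and Kdr were called lower. The mean of 9 fibroblast markers was 8.37 to 10.17 on inflamed and 7.10 to 9.45 on untreated arrays, higher in all 4 pairs, with 1 of 9, Lum, called higher. That of 7 keratinocyte markers was 3.06 to 5.06 on inflamed and 5.79 to 7.91 on untreated arrays, lower in all 4. Gapdh signal at the 3' end over that at the 5' end, on the log2 scale, a measure of RNA integrity and of the priming of the amplification, was 2.58 to 3.30 on inflamed and 3.40 to 4.16 on untreated arrays, lower in all 4 pairs, while the same measure of Actb averaged -0.07 in inflamed and -0.08 in untreated samples and was higher in 2 pairs. The part of these measures in the changes below was not tested.

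In inflamed samples, transcripts of the arginases Arg1 and Arg2, of the cofactor enzyme Gch1 and of Ddah1 were higher. The calls of Arg2 and Gch1 were fragile and ended when any single pair was left out. No rise or fall passed the test for Nos3, Asl, Odc1 and Ddah2, and the probe sets of Nos2 and Ass1 were at or under background on nearly all arrays. Of the 10 genes, 8 had a probe set bright enough to be tested (mean log2 signal of at least 3.30 over all arrays), and at an adjusted p under 0.05 (limma with the pair as block, adjusted over 10843 genes) 4 of these rose with inflammation and 0 fell. Among all genes tested, 6.94% were called, 3.91% as higher and 3.02% as lower in inflamed samples. At an unadjusted p under 0.05, 4 members were higher and 1, Ddah2, was lower, and of all genes 22% were past that threshold, 10.5% as higher and 11.5% as lower. Arg1 and Arg2 passed the brightness filter only through their inflamed arrays and Ddah2 only through its untreated arrays, so the count of 4 is a description of these genes and not support for a shift of the group. The median change of the 8 tested members was 1.02, beside -0.09 for all genes. It is bound by the same filter and is likewise a description only. With 4 samples a group, p-values refer to pools of mice. They rest on 3 residual degrees of freedom and on a median of 6.27 more that limma borrows from the variances of all genes.

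**Figure D1:**
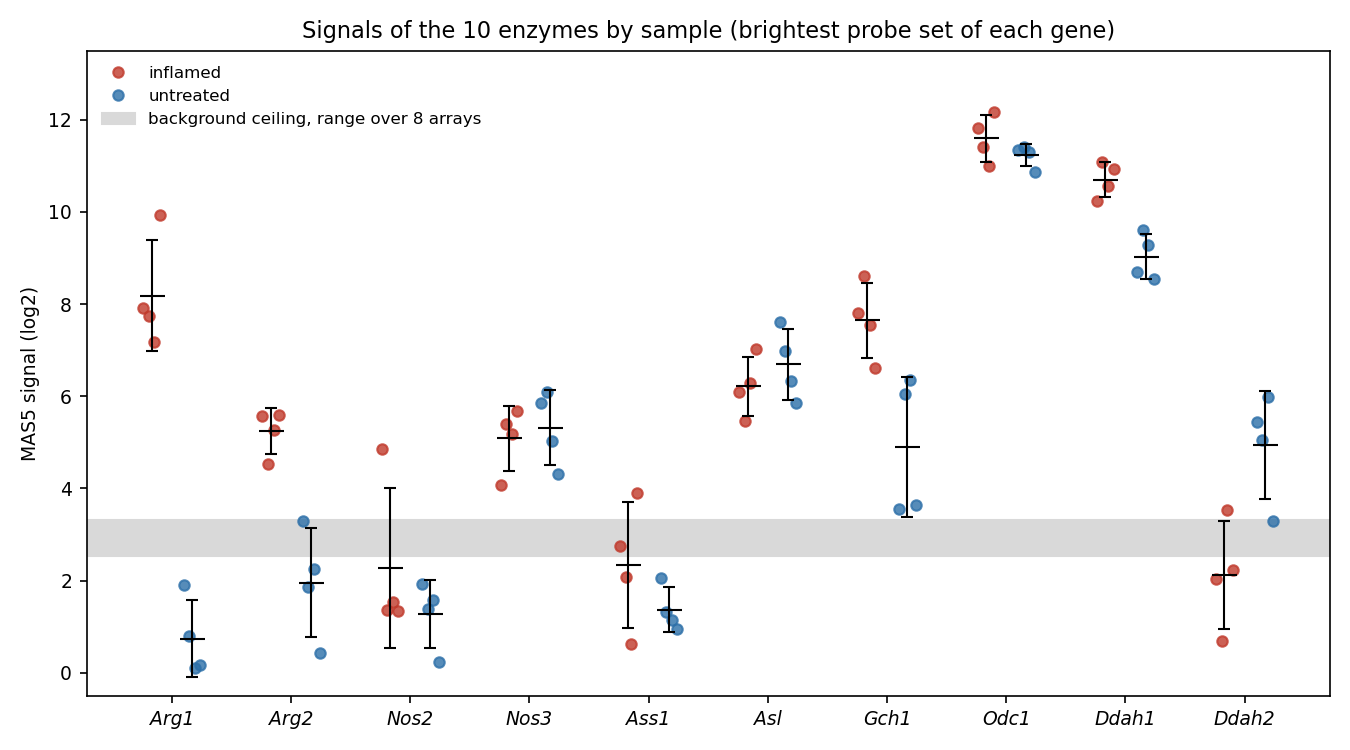
MAS5 signal (log2) of the brightest probe set of each of the 10 genes in the 4 inflamed samples (red) and the 4 untreated samples (blue), with mean and SD as bars, and in grey the range of the background ceilings over the 8 arrays. Arg1 and Arg2 stood at 7.18 to 9.93 and 4.53 to 5.60 in inflamed samples, above all untreated samples, while Nos3 and Asl overlapped between the groups.

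Arg1, the cytosolic arginase known from liver and from activated macrophages, had the largest change of the tested members. Its log2 signal was 7.91, 7.73, 7.18 and 9.93 in inflamed samples of pairs 1 to 4, against 1.91, 0.80, 0.10 and 0.16 in untreated samples. All 4 inflamed arrays were above background and no untreated array was, and the groups did not overlap. Because the untreated level is only bounded by the ceiling, the rise can be given only as at least 37.4-fold (adjusted p = 0.00129, limma; higher in 4 of 4 pairs). The call held under all 13 alternative settings in which Arg1 was tested, with adjusted p between 0.000104 and 0.0188.

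Arg2, the mitochondrial arginase, was measured by 2 probe sets. The name ending _s of the brighter one marks probes that may also match other sequences. The brighter one stood at 5.57, 4.53, 5.26 and 5.60 in inflamed samples and at 3.28, 1.86, 2.25 and 0.43 in untreated samples. The groups did not overlap, and 1 of 4 untreated arrays was above background, so the size of the rise, 3.28 ± 0.83 (SE; adjusted p = 0.0463, limma; 4 of 4 pairs), rests in part on values under the ceiling. It was 2.17 with values under the ceiling set to it and 1.39 with a pseudocount of 16, past the threshold in both (adjusted p = 0.0303 and 0.0294, limma). The second probe set was too dim for the filter, with 3.44 ± 1.79 in inflamed samples, against 1.74 ± 1.61 in untreated ones (SD, n = 4 each), and went the other way in pair 4. The call for Arg2 ended with no brightness filter (adjusted p = 0.0683), without the intensity trend (adjusted p = 0.0724) and without pair 1, 2, 3 or 4 (adjusted p = 0.112, 0.105, 0.136 and 0.152), all by limma. Arg1 changed by 4.16 ± 0.37 more than Arg2 (SD of 4 pairs), with the larger rise in Arg1 in all 4 pairs (exact two-sided sign-flip permutation p = 0.125, the smallest that 4 pairs allow, and the same after adjustment over the 4 such comparisons made). The untreated values of both genes lie mostly under background, and that difference was 3.05 with values under the ceiling set to it.

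Means of the leukocyte marker lists were higher in inflamed samples, as Arg1 was, though not for every gene or in every pair. The 14 measured monocyte and macrophage markers averaged 3.78 to 5.00 on inflamed arrays and 2.55 to 3.85 on untreated arrays, higher in 3 of 4 pairs. Of the 14, 11 had a higher mean in inflamed samples, and 0 of the 7 tested passed. Lyz2, C1qb and Cd68, a lysozyme, a complement chain and a lysosomal protein, averaged 7.32, 5.75 and 6.14 in inflamed samples, against 5.38, 4.85 and 4.28 in untreated ones, while Cx3cr1 and Ms4a7 were not above background on any inflamed array. The 6 markers of alternatively activated macrophages, a state in which Arg1 is a textbook transcript in the mouse, averaged 4.80 to 7.73 on inflamed arrays against 3.17 to 4.29 on untreated arrays. The 1 called among the 4 tested, Chil3, a chitinase-like protein, was 7.73, 6.04, 7.39 and 10.87 in inflamed samples of pairs 1 to 4 and under background in all untreated samples, while Mrc1, the mannose receptor, stood at 8.78 ± 1.11 in inflamed samples, against 8.69 ± 0.42 in untreated ones (SD, n = 4 each) and Mgl2, a lectin, was above background on no inflamed array. Il4ra and Retnla, the interleukin-4 receptor and a secreted protein, averaged 8.19 and 6.56 in inflamed samples, against 6.23 and 3.39 in untreated ones. The 13 measured neutrophil markers averaged 4.18 to 4.81 on inflamed arrays and 1.82 to 2.74 on untreated arrays, with 11 of 13 at a higher mean in inflamed samples. All 4 that were tested rose: S100a8 and S100a9, the calprotectin chains, averaged 8.51 and 9.57 in inflamed samples, against 1.49 and 2.27 in untreated ones, and Hdc and Lcn2 averaged 7.61 and 10.28 in inflamed samples, against 1.50 and 8.44 in untreated ones (adjusted p = 0.00151, 0.00121, 0.00329 and 0.0238, limma). S100a8, S100a9 and Hdc, like Chil3, passed the brightness filter only through their inflamed arrays. The count of 4 is therefore a description only. Elane, Ngp and Ltf, granule proteins of maturing neutrophils, were above background on no inflamed array. The 7 measured pan-leukocyte and T cell markers averaged 3.95 to 6.36 on inflamed arrays and 2.53 to 3.51 on untreated arrays, higher in all 4 pairs. Of the 7, 5 had a higher mean in inflamed samples and 2, Cd3d and Cd2, a lower one. Cd3d was above background on 0 inflamed and 3 untreated arrays, and Cd2 on 2 inflamed and 3 untreated arrays. Both were too dim to be tested. Cd53, a leukocyte tetraspanin, averaged 9.97 ± 0.79 in inflamed samples, above background on all 4 arrays, against 0.90 ± 1.30 in untreated samples, above it on none (SD, n = 4 each; adjusted p = 0.000273, limma). Cd53 too passed the brightness filter only through its inflamed arrays. The other 2 tested, Laptm5 and Coro1a, averaged 8.33 and 6.24 in inflamed and 7.95 and 3.47 in untreated samples and did not pass. Ptprc, the gene of CD45 against which the cells were sorted, was above background on 3 inflamed arrays and on no untreated array. The inflamed array of pair 4 was the highest of all 8 for Arg1, Chil3, Ptprc and the means of these macrophage, alternatively activated, neutrophil and pan-leukocyte lists. This did not hold for every gene: Hdc and Il4ra were highest on the inflamed array of pair 1 and Lyz2 on that of pair 3. The inflamed array of pair 4 also had the highest mean signal of all 8, at 160.4. Without pair 4 the change of Arg1 was 6.67 ± 0.89 (SE; adjusted p = 0.00404, limma). The part of these cells in the rise of Arg1 was not tested, and a change in RNA per cell cannot be told apart from a change in the share of cells in such sorted samples.

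**Figure D2:**
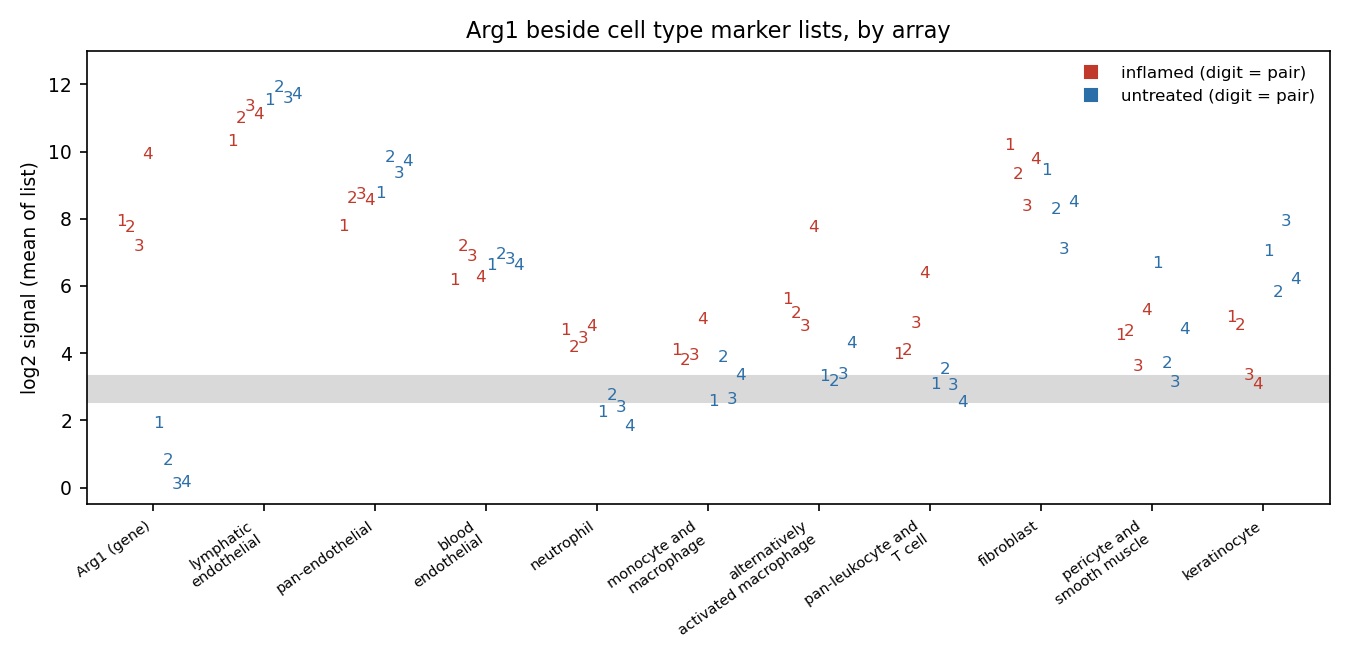
Log2 signal of Arg1 and mean log2 signal of 10 lists of cell type markers on each array, with the digit giving the pair, inflamed samples in red and untreated samples in blue, and the range of the background ceilings in grey. The inflamed array of pair 4 was highest for Arg1 at 9.93 and for the alternatively activated macrophage list at 7.73, while the lymphatic endothelial list was at 10.30 to 11.35 in inflamed and 11.53 to 11.91 in untreated samples.

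Nos3, the endothelial nitric oxide synthase, was above background on all 8 arrays at a modest level. Its log2 signal was 4.07, 5.41, 5.19 and 5.69 in inflamed samples and 5.85, 6.09, 5.04 and 4.31 in untreated samples. The groups overlapped, and 2 of the 4 pairs went each way. The difference was -0.23 ± 0.73 (SE; adjusted p = 0.897, limma), with a 95% interval from -1.88 to 1.42, so that neither a fall nor a rise of about 2-fold lay outside it. Its sign turned under median centring of the arrays, under quantile normalization and without pair 1, with 0.07, 0.03 and 0.28. Nos2, the inducible synthase known from activated macrophages, was above background on only 1 array, the inflamed one of pair 1, at 4.86. The other 3 inflamed samples stood at 1.36, 1.53 and 1.33, against 1.92, 1.38, 1.59 and 0.22 in untreated samples, all under the ceiling, and Nos2 was too dim to be tested among the genes (adjusted p = 0.688 over all 45037 probe sets, limma).

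Ass1 and Asl, the pair of enzymes that rebuild arginine from citrulline, gave no call. The Ass1 probe set was above background on 1 array, the inflamed one of pair 4 at 3.90, and averaged 2.33 ± 1.37 in inflamed samples, against 1.37 ± 0.48 in untreated ones (SD, n = 4 each). At that brightness no level of Ass1 could be compared. Asl was bright enough on every array, with 6.10, 5.46, 6.28 and 7.03 in inflamed samples and 7.60, 6.99, 6.33 and 5.85 in untreated samples. The groups overlapped and pair 4 went against the other three. The difference was -0.47 ± 0.63 (SE; adjusted p = 0.721, limma; 95% interval from -1.90 to 0.95).

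Gch1, GTP cyclohydrolase, catalyses the first and rate-limiting step towards tetrahydrobiopterin, the cofactor without which nitric oxide synthases do not make nitric oxide. Its brighter probe set stood at 7.82, 8.61, 7.55 and 6.62 in inflamed samples and at 3.56, 6.05, 6.35 and 3.63 in untreated samples. The groups did not overlap, which held for 13.1% of all genes tested (6.3% with all inflamed samples above and 6.84% with all below), and all arrays were above background. Gch1 rose by 2.75 ± 0.64 (SE; 6.74-fold; adjusted p = 0.0339, limma), with 4.26, 2.55, 1.20 and 2.99 in pairs 1 to 4. The second probe set was higher in all 4 pairs too, at 4.64 ± 0.21 in inflamed samples, against 3.05 ± 1.55 in untreated ones (SD, n = 4 each), but its groups overlapped and it did not pass over all probe sets. The call of Gch1 ended without the pair as a block (adjusted p = 0.0543), without the intensity trend (adjusted p = 0.0950), with the mean of its probe sets (adjusted p = 0.0569) and without pair 1, 2, 3 or 4 (adjusted p = 0.123, 0.110, 0.0557 and 0.0746), all by limma. Set against Nos3, whose product needs the cofactor, the change of Gch1 was larger by 2.99 ± 2.24 (SD of 4 pairs; larger in 4 of 4 pairs; exact two-sided sign-flip permutation p = 0.125, the smallest possible).

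Ddah1 hydrolyses asymmetric dimethylarginine, a methylated arginine that blocks nitric oxide synthases, and Ddah2 is named for the same reaction. Ddah1 was among the brightest members and rose by 1.67 ± 0.25 (SE; 3.18-fold; adjusted p = 0.00554, limma). On its brightest probe set it stood at 10.24, 11.08, 10.56 and 10.94 in inflamed samples and at 8.71, 9.60, 9.28 and 8.55 in untreated samples, with no overlap. Of its 5 probe sets, the 3 bright ones rose alike, by 1.67, 1.41 and 1.57, each higher in 4 of 4 pairs and without overlap (adjusted p = 0.00415, 0.0123 and 0.0457 over all 45037 probe sets, limma, where 2.46% of probe sets were called). The other 2 were dimmer. The brighter of them averaged 5.00 ± 0.98 in inflamed samples, against 4.50 ± 1.40 in untreated ones (SD, n = 4 each), higher in pair 1 alone, and the dimmest was above background on 1 untreated array only. The call of Ddah1 ended without the intensity trend (adjusted p = 0.110) and with the mean of all its probe sets, dim ones included (adjusted p = 0.0677), by limma.

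Ddah2 went the other way without passing. Its only probe set stood at 2.04, 0.68, 3.54 and 2.22 in inflamed samples, with 1 array above background, and at 5.45, 5.04, 5.98 and 3.29 in untreated samples, with 3 above. It was lower in the inflamed sample of all 4 pairs, but the groups overlapped across pairs, and the difference of -2.82 ± 0.85 (SE) did not pass (adjusted p = 0.0855, limma; range 0.0609 to 0.241 over 13 alternatives). The changes of Ddah1 and Ddah2 differed by 4.49 ± 1.11 (SD of 4 pairs; above 0 in 4 of 4; exact two-sided sign-flip permutation p = 0.125, the smallest possible). The difference rests in part on Ddah2 values under background, and was 3.46 with values under the ceiling set to it and 2.86 with a pseudocount of 16.

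The start regions of Ddah1, Ddah2 and Gch1 are shown because these are the members with a start region in the RefSeq table whose signals separated or parted in direction between the groups. Each window runs from 250 bases before to 50 after the transcript start in GRCm38.p6, 5′ to 3′ on the gene's strand, with matches to any of 7 motifs in capitals. The motifs, read on both strands, were the E-box CACGTG, the CCAAT box CCAAT, the TATA box TATAAA, the STAT-binding GAS element TTCNNNGAA, the interferon-stimulated response element, the AP-1 site TGANTCA and the NF-kB consensus.
Ddah1, chr3:145758442-145758741, plus strand: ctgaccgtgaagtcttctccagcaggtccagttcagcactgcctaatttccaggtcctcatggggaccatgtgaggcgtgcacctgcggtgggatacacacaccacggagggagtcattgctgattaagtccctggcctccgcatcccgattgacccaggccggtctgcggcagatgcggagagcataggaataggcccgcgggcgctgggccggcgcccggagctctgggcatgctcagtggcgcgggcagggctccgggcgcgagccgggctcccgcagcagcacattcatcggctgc
Ddah2, chr17:35058785-35059084, plus strand: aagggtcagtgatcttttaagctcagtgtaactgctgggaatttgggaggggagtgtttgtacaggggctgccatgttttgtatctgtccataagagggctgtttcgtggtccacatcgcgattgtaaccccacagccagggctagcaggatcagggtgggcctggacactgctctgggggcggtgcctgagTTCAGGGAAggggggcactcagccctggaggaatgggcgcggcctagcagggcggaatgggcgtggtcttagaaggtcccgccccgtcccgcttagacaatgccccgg
Gch1, chr14:47189364-47189663, minus strand: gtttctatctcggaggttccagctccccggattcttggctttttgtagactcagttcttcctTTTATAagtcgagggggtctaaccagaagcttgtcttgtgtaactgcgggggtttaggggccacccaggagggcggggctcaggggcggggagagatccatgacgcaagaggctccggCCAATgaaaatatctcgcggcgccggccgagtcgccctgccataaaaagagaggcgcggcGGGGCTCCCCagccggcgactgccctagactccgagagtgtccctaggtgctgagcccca
The Gch1 window held a match to the NF-kB consensus starting 10 bases before the transcript start, a CCAAT box 70 bases before it and a TATA box letter match on the opposite strand 188 bases before it. Over all 32851 windows of the table, 8.46% held the NF-kB consensus, 37.4% a CCAAT box and 13.6% a TATA box. The Ddah2 window held 1 GAS element, 58 bases before the start, as did 8.30% of all windows. The Ddah1 window held none of the 7 motifs, which says only that these letters are not in it. The windows were rich in G and C, at 65.7% in Ddah1, 59.7% in Ddah2 and 60.3% in Gch1, against a median of 52.7% over all windows. A match of letters is a description, and no binding was measured here.

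Odc1, ornithine decarboxylase, makes putrescine from ornithine and was the brightest member in both groups. Its brightest probe set stood at 11.81, 11.40, 10.99 and 12.18 in inflamed samples and at 11.34, 11.40, 11.31 and 10.87 in untreated samples. The groups overlapped, and the difference of 0.36 ± 0.24 (SE; adjusted p = 0.420, limma; 95% interval from -0.17 to 0.90) did not pass. Its 3 probe sets did not go the same way. The second differed by 0.66 ± 0.40 and was higher in 2 of 4 pairs, while the third differed by -0.62 ± 0.32 and was lower in all 4 pairs (adjusted p = 0.531 and 0.442 over all probe sets, limma). The gap between the first and the third was 0.98 ± 0.66 (SD of 4 pairs; above 0 in 4 of 4; exact two-sided sign-flip permutation p = 0.125, the smallest possible). The name ending _x of the first marks a probe set with probes that may also match other sequences. The second and the third do not have that ending and also parted in direction, so no single level of Odc1 can be taken from this array. What set the probe sets apart was not tested.

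**Figure D3:**
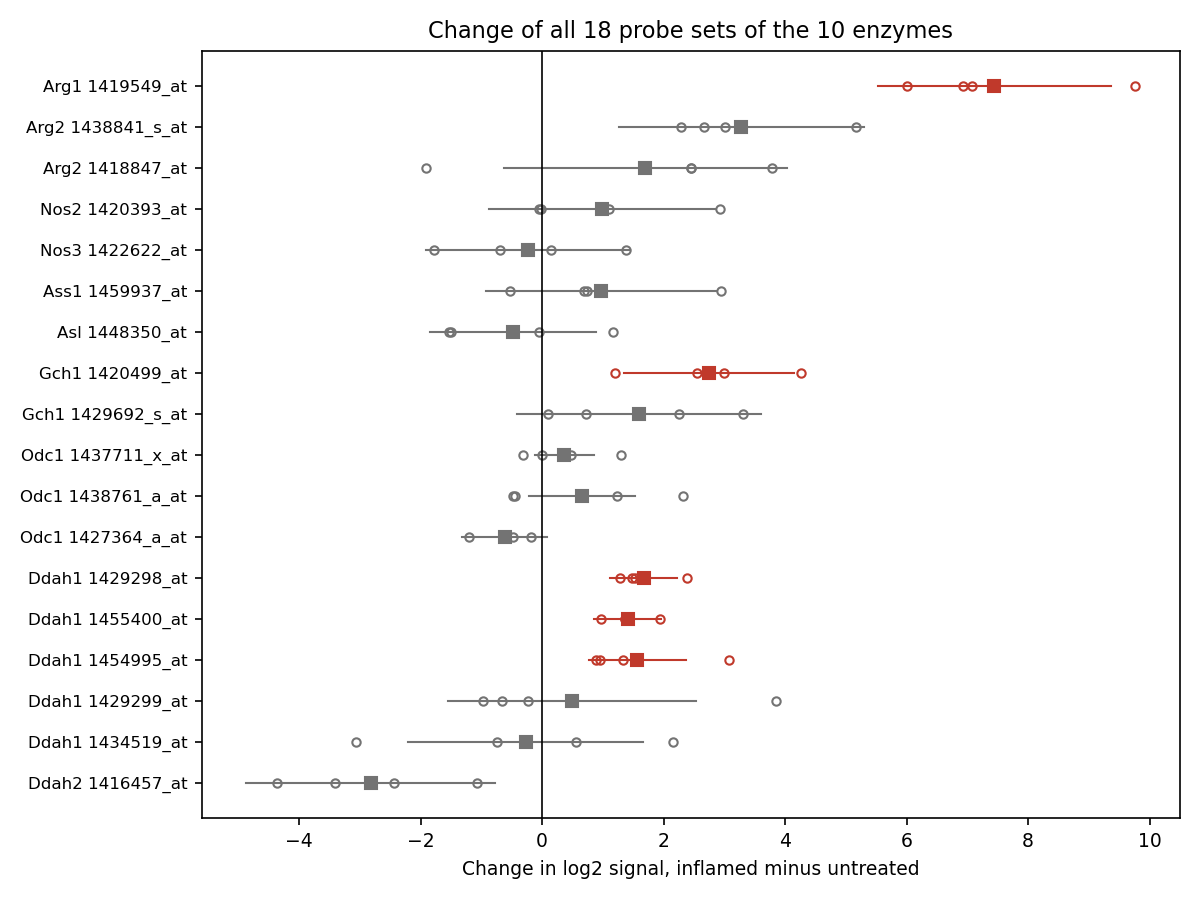
Change in log2 signal, inflamed minus untreated, of all 18 probe sets of the 10 genes, fitted without a brightness filter. Squares give the change, lines its 95% interval, open circles the 4 pairs, and red marks the 5 probe sets with an adjusted p under 0.05, those of Arg1, Gch1 and the 3 bright ones of Ddah1.

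Over all 18 probe sets, fitted without the brightness filter, 5 were higher and 0 lower, beside 1.39% higher and 1.07% lower among 45037. Those 5 were the probe set of Arg1, the brighter one of Gch1 and the 3 bright ones of Ddah1 (adjusted p = 0.000845, 0.0450, 0.00415, 0.0123 and 0.0457, limma). The brighter probe set of Arg2 did not pass there (adjusted p = 0.102). The 4 probe sets under the filter were those of Nos2 and Ass1, the dimmer one of Arg2 and the dimmest one of Ddah1. The groups did not overlap in 6 of the 18 probe sets, beside 7.99% of all probe sets.

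Genes around these enzymes were taken from a list of 61 by role, of which 54 had a probe set of their own and 40 were bright enough to be tested. Of the 40, 6 were higher and 3 lower in inflamed samples, 22.5% against 6.94% of all genes, and 31 did not pass. Among the 3 lower, Gucy1b1 passed the brightness filter only through its untreated arrays. The list was also chosen with earlier results of these data known. These counts are therefore a description and not support for a shift of the list. The median change of the 40 was 0.20. Without pair 1, 2 or 3 the number higher was 1, 1 and 2, and without the intensity trend it was 0, while the number lower stayed at 3 without any single pair and was 2 without the trend.

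Among 5 tested genes of arginine transport, 2 rose. Slc7a1, the main cationic amino acid transporter of most cells, was 10.25, 10.43, 10.67 and 10.25 in inflamed and 9.69, 9.60, 9.61 and 9.09 in untreated samples, a rise of 0.90 ± 0.22 (SE; adjusted p = 0.0401, limma). Slc3a2, the shared heavy chain of several amino acid exchangers, rose by 1.55 ± 0.30 (adjusted p = 0.0169, limma), and neither gene's groups overlapped. The call of Slc7a1 ended without any single pair (adjusted p = 0.0792 to 0.161) and that of Slc3a2 without pair 1 or 2 (adjusted p = 0.0661 and 0.0699), by limma. Slc7a2, a transporter induced with arginase and Nos2 in macrophages, and Slc7a6 differed by 1.50 ± 0.94 and 1.05 ± 0.69 and did not pass. Of 7 tested genes of the urea cycle, ornithine and creatine, 0 passed. Gamt, which makes creatine, differed by -2.77 ± 1.03, and Aldh18a1, which feeds glutamate towards ornithine and proline, by 2.48 ± 0.93 (adjusted p = 0.150 and 0.155, limma). These were 2 of the 7 at an unadjusted p under 0.05, beside 22% of all genes.

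Of the 4 other tested genes of tetrahydrobiopterin synthesis and recycling, 0 passed. Qdpr, which regenerates the cofactor, was lower in all 4 pairs by a mean difference of -0.50 ± 0.16 (SE; adjusted p = 0.100, limma), and passed under quantile normalization alone (adjusted p = 0.0261). Pts, the second enzyme of the route, differed by -1.41 ± 0.70 (adjusted p = 0.285, limma). Of these 4, 1 (Qdpr) was at an unadjusted p under 0.05. How the change of Gch1 differs from theirs was not tested.

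Among 4 tested partners of nitric oxide synthase, Cav1 fell and Hsp90aa1 rose. Cav1, the caveolar coat protein that binds and restrains Nos3, was 9.91, 9.78, 10.11 and 9.50 in inflamed samples and 10.81, 11.20, 11.34 and 10.92 in untreated samples, a change of -1.24 ± 0.19 (SE; adjusted p = 0.00571, limma), without overlap. Such a fall was not particular to Cav1. The pan-endothelial markers Tek, Tie1 and Kdr changed by -1.47, -2.18 and -1.71, while the other 5 of that list were not called. Of 8 tested blood endothelial markers, 3 were called lower and 0 higher. The part of these in the change of Cav1 was not tested. Hsp90aa1, a chaperone that favours Nos3 activity, rose by 1.13 ± 0.24 (adjusted p = 0.0239, limma; 4 of 4 pairs), and lost the call without the pair as a block (adjusted p = 0.0661) and without pair 1, 2 or 3 (adjusted p = 0.0895, 0.0901 and 0.0922). Nosip, a Nos3-interacting protein, and Akt1, a kinase that activates Nos3, differed by -0.55 ± 0.53 and 0.27 ± 0.49 and did not pass.

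The largest changes of the whole list were in the receptor for nitric oxide. Soluble guanylate cyclase, which turns nitric oxide into a cGMP signal, is a dimer of an alpha and a beta chain, and the genes of both chains fell. Gucy1a1 was 5.27, 3.77, 3.33 and 6.22 in inflamed samples and 8.38, 8.91, 10.00 and 11.00 in untreated samples. It was above background on all arrays, the groups did not overlap, and the change was -4.93 ± 0.61 (SE; 30.4-fold lower in inflamed samples; adjusted p = 0.00201, limma). All 3 of its probe sets fell, by 4.93, 5.24 and 5.19. Gucy1b1 was 2.44, 3.78, 4.22 and 2.32 in inflamed samples, 2 of them above background, and 7.62, 6.97, 8.30 and 7.57 in untreated samples, a change of -4.42 ± 0.67 (SE; adjusted p = 0.00574, limma). Both of its probe sets fell, by 4.42 and 3.94. Both genes kept the call under every alternative in which they were tested, with adjusted p between 0.000676 and 0.0360 for Gucy1a1 and between 0.00126 and 0.0336 for Gucy1b1.

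Markers of pericytes and smooth muscle, cells in which soluble guanylate cyclase is well known, averaged 3.59 to 5.28 on inflamed arrays and 3.13 to 6.67 on untreated arrays over 7 genes, higher in 3 of 4 pairs, with 4 genes at a higher and 3 at a lower mean in inflamed samples. Each of the 7 was above background on at least 1 array of each group, and 0 of the 4 tested passed. The 4 brightest, Pdgfrb, Cspg4, Acta2 and Rgs5, averaged 7.64, 7.59, 4.66 and 3.08 in inflamed samples, against 7.88, 7.32, 5.84 and 4.13 in untreated ones. In pair 1 the list mean was 4.53 in the inflamed and 6.67 in the untreated sample. Downstream, Prkg1, the cGMP-dependent kinase, stood at 3.68 ± 0.44 in inflamed samples, against 5.34 ± 0.48 in untreated ones (SD, n = 4 each), without overlap, and its difference of -1.66 ± 0.70 (SE) did not pass (adjusted p = 0.205, limma). Vasp, an actin regulator phosphorylated by that kinase, had a difference of 1.44 ± 0.52 (adjusted p = 0.142, limma), which is not a call. Pde5a, which degrades cGMP, was too dim to be tested.

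**Figure D4:**
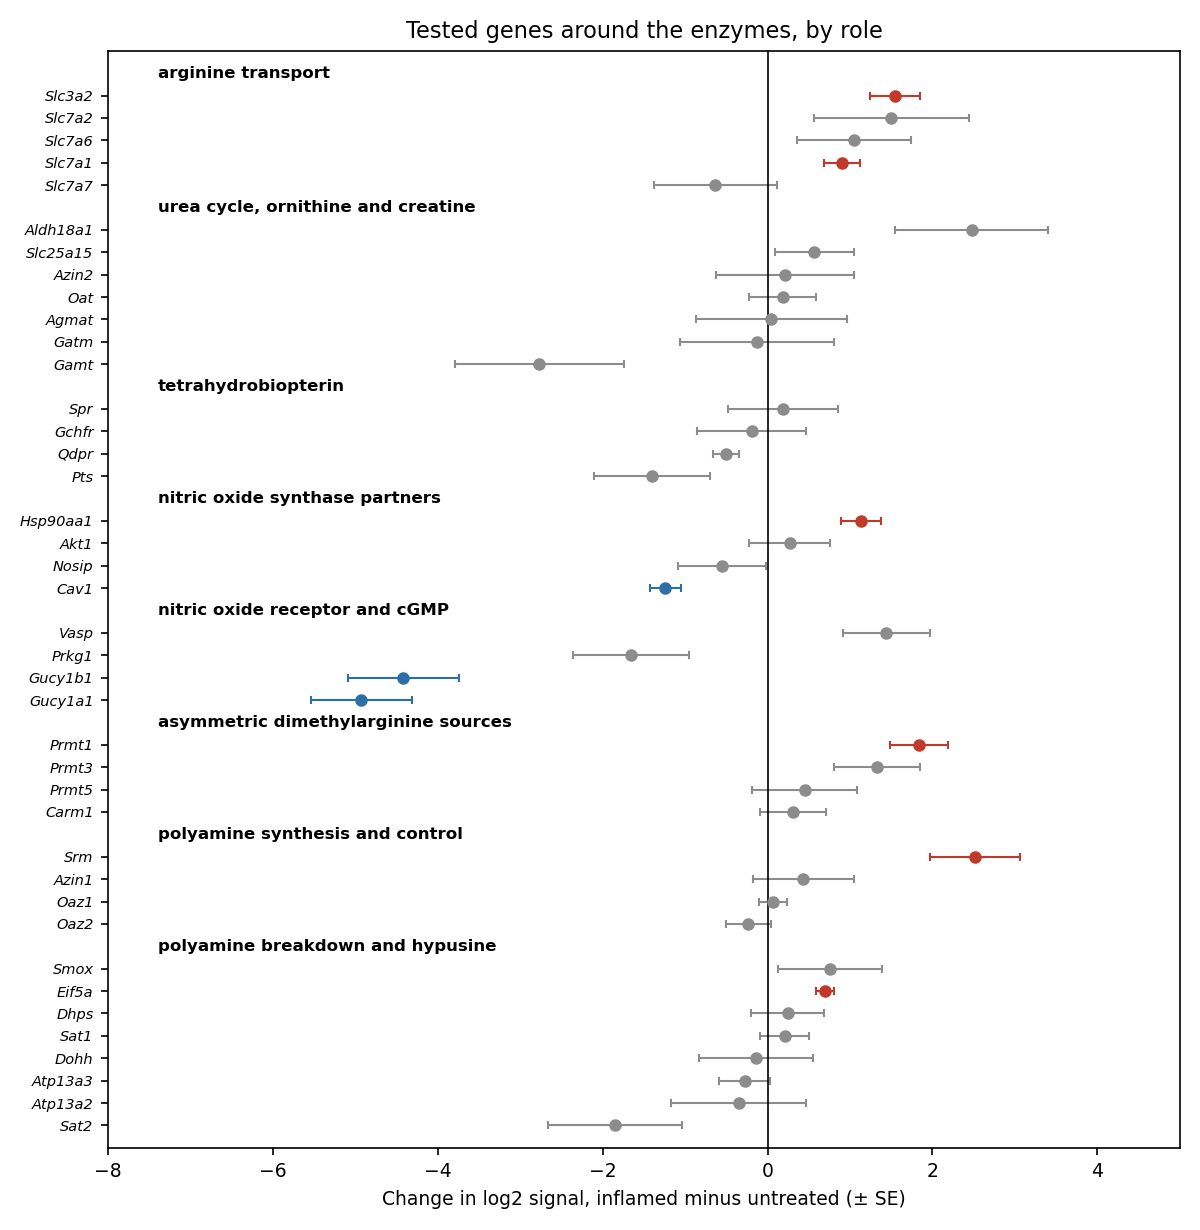
Change in log2 signal, inflamed minus untreated, with SE, of the 40 tested genes around the 10 enzymes, by role, with red for higher, blue for lower and grey for genes that did not pass. The guanylate cyclase genes Gucy1a1 and Gucy1b1 lie at -4.93 and -4.42, beyond all other genes of the list.

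Of 4 tested arginine methyltransferases, whose products release methylated arginines on breakdown, 1 rose. Prmt1, the main source of asymmetric dimethylation, was 10.30, 9.20, 9.44 and 8.49 in inflamed and 8.12, 7.25, 7.33 and 7.38 in untreated samples, a rise of 1.84 ± 0.35 (SE; adjusted p = 0.0148, limma) without overlap. Without pair 1, 2 or 3 it did not pass (adjusted p = 0.0852, 0.0570 and 0.0779). Prmt3 and Carm1 differed by 1.33 ± 0.52 and 0.31 ± 0.40 and did not pass.

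In the polyamine branch beyond Odc1, 1 of 4 genes of synthesis and its control rose and 0 fell. Srm, spermidine synthase, was 7.83, 7.85, 7.39 and 8.02 in inflamed samples and 4.60, 5.49, 5.81 and 5.12 in untreated samples. The groups did not overlap and the rise was 2.52 ± 0.55 (SE; 5.72-fold; adjusted p = 0.0260, limma), which did not pass without pair 1, 2, 3 or 4 (adjusted p = 0.102, 0.0823, 0.0584 and 0.0804). Oaz2, an antizyme that leads ornithine decarboxylase to its breakdown, and Azin1, which blocks antizymes, differed by -0.23 ± 0.27 and 0.43 ± 0.62 and did not pass. Of 8 genes of polyamine breakdown, transport and hypusine, 1 rose: Eif5a, the translation factor that carries hypusine, a residue made from spermidine, by 0.70 ± 0.11 (SE; adjusted p = 0.00603, limma). Its second probe set rose by 2.46 ± 0.35 (SE; adjusted p = 0.00255 over all probe sets, limma). Both names carry an ending, _s for the first and _x for the second, that marks probes that may also match other sequences. Sat2, named for a spermidine acetyltransferase, and Smox, spermine oxidase, differed by -1.85 ± 0.82 and 0.76 ± 0.63 and did not pass. The calls of Slc7a1, Slc3a2, Cav1, Hsp90aa1, Prmt1, Srm and Eif5a all ended without the intensity trend (adjusted p = 0.0651 to 0.326, limma), and Slc7a1 also did not pass under quantile normalization (adjusted p = 0.0758), with no brightness filter (adjusted p = 0.0549) or with the mean of its probe sets (adjusted p = 0.268).

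The genes whose signals over the 8 arrays lay closest to each called member, by the root mean square distance of log2 signals centred on each gene's mean, are given as a description. Arg1 lay closest to Cxcl2, a neutrophil-attracting chemokine, at 0.69, then to Tnfaip6 and Saa3 at 0.77 and 0.79. The untreated means of these 3 genes, -0.45, 2.61 and 1.46, lay near or under the background ceiling, as did Arg1, so part of each distance is background noise. Arg2 lay closest to Ifrd2 at 0.42, Ahi1 at 0.59 and the monocarboxylate transporter gene Slc16a1 at 0.60. Gch1 lay closest to Nek6 at 0.45, Pus7l at 0.53 and Rras2 at 0.61. Ddah1 lay closest to Plau, the urokinase gene, Higd1a and Akap12, at 0.26, 0.26 and 0.27. These distances grow with the size of a gene's change and with its noise, so they do not compare between members.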

How the data were processed

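Values are MAS5 signals, linear intensities as deposited by the authors, with the method named per the submitters' processing notes, and no version or scaling target is known here. The deposited intensities were taken to log2 with no pseudocount and no further scaling, since array medians differed by at most 0.467, under a limit of 0.5. The medians did part by group, at 3.27 to 3.44 on inflamed and 3.56 to 3.74 on untreated arrays, lower in all 4 pairs. Of 45101 probe sets, 64 controls were left out. Genes were named from GEO's platform annotation, only where a probe set names 1 gene. Probe sets whose log2 signal averaged under 3.30 were left out, and the brightest one stood for its gene. All 10843 genes were fitted with limma 3.58.1 in R 4.3.3 (lmFit, eBayes with an intensity trend, two-sided, Benjamini-Hochberg, threshold 0.05) with pairs as fixed blocks, and all 45037 probe sets in a second fit without filter. The fit was tested on simulated data.

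Pairing follows the design text, and the correlation of paired samples' deviations was 0.16, 0.00, 0.08 and 0.03. Genes that no array of a group shows above the background ceiling have a bounded level in that group; this ceiling was chosen after values were seen. The number of arrays limits the precision. Named were all 10 members, every listed pathway gene past the threshold and up to 2 others per role with the smallest p, up to 4 genes of a marker list with the highest mean signal (for the lists set beside a result), and the 3 nearest genes of each called member. Reln, Nrp2, Prox1, Tek, Tie1, Kdr, Lum, Mgl2, Cx3cr1, Ms4a7, Elane, Ngp, Ltf, Ptprc, Cd3d, Cd2 and Pde5a were named after their values were seen. Members and lists were chosen with earlier results of these data known. Sequences are RefSeq's, from GRCm38.p6; 5 of the 10 members had a window there.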

Additional observations from a re-analysis of the deposited data

Results flagged for a closer look

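In 4 of 54 groups of 4 samples examined among the members and the called genes around them, 1 sample lay far from the other 3; chance alone gives about 1 in 20 such groups, 5%. The inflamed sample of pair 1 stood at 4.86 for Nos2, against 1.33 to 1.53 in the other inflamed samples. The untreated sample of pair 4 stood at 9.09 for Slc7a1, against 9.60 to 9.69 in the others. The untreated sample of pair 1 stood at 7.78 for Slc3a2, against 8.89 to 9.04, and at 8.12 for Prmt1, against 7.25 to 7.38. All are log2 signals.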

How the results depend on the processing

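Of the 10 enzymes, 4 were higher and 0 lower in the fit reported. The number higher was 1 without the intensity trend, 2 with the stricter filter (only 4 members were then tested), 2 with the mean of all probe sets of a gene, and 2 without any single pair. Over the 18 probe sets, where 5 were higher, it was 3 with no replicate block, 3 with the replicate block as a random effect, 3 with a pseudocount of 16, 1 without the trend and 2 to 3 without single pairs. The number lower was 0 in every setting. With no replicate block, 3 enzymes stayed past the threshold and Gch1 did not; the block ended no other member's call. Of the genes around them, 6 were higher and 3 lower; the number higher was 0 without the trend and 1 to 4 without single pairs. Over all genes, 424 were higher and 328 lower. Median centring, which moved the median change from -0.09 to 0.22, gave 719 higher and 227 lower, 76.0% higher against 56.4%; the fit without the trend gave 94 and 47; and single pairs left out gave 208 to 306 higher and 126 to 198 lower. The cause of these differences was not tested beyond fewer samples or genes entering a fit. Setting values under the background ceiling to it, chosen after seeing the data, kept the counts of 4 and 0, and of 6 and 3. Of 884 single values under alternatives, 63 lost the call, 1 gained it and 0 turned sign past the threshold. Signal near background limits Nos2, Ass1, Arg2, Ddah2 and the untreated level of Arg1.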
